A study of Mus musculus with 9 samples.

Results

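The baseline transcriptome of cultured mouse white adipocytes was described from the 3 control arrays of a series of 9 arrays in which the other 6 samples received 100 ng/ml of parathyroid hormone PTH(1-34) or of the related peptide PTHrP(1-34) for 4 h. The members are these 3 control samples, chosen by their label alone, and the treated arrays enter no value given here. Each control is total RNA from primary adipocytes on day 8 of differentiation, hybridised to an Affymetrix mouse array. The cells were grown from inguinal fat of male C57BL6 mice 30 to 35 days old, from its stromal-vascular fraction, which holds the precursors and other cells left once mature fat cells are removed. All samples, controls included, were induced for 2 days with rosiglitazone at 1 µM (an agonist of the nuclear receptor PPARγ), isobutylmethylxanthine at 0.5 µM (a phosphodiesterase inhibitor), insulin at 5 µg/ml and dexamethasone at 1 µM (a glucocorticoid). They were then kept in insulin and rosiglitazone, with plain medium from day 6. The sources used here do not give what the controls received in place of peptide. Replicates are biological by their labels, which name no mouse or culture for each, and the spread between them may be partly technical.

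Adipocytes store fatty acids as triglyceride in a lipid droplet and release them again by lipolysis. In culture, stromal cells of fat become adipocytes when hormones switch on the transcription factors C/EBPβ and C/EBPδ, which are followed by PPARγ and C/EBPα. These last factors turn on genes for fatty acid uptake, binding and synthesis, for droplet coat proteins and for secreted hormones such as adiponectin. Stromal cells that do not convert stay in the dish as fibroblast-like cells and make matrix.

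Of the 45101 probe sets on the array, 34945 carried 1 gene symbol and stood for 18193 genes, and each gene was given the value of its brightest probe set. Signals are array intensities as deposited, with no unit. A probe set's signal depends on its probes as well as on its transcript, so ranks order probe set signals and not numbers of transcripts. A signal of 29.3, the 40th percentile over all probe set means, was taken as the dim level, and a gene was counted as above it only when all 3 arrays were. By that rule 12351 genes (67.9%) lay above the dim level, 4794 lay above it on no array and 1048 on some. The median gene had a signal of 135, and the brightest 5% of genes, 909 in number, began at 2876. The 3 arrays were close to each other, with median probe set signals between 49.1 and 52.7, and having only 3 of them limits the precision throughout. Actin control probe sets at the 3' and 5' ends, whose ratio reflects RNA integrity and labelling, had ratios between 1.45 and 1.51. The same ratio was between 0.950 and 0.985 for Gapdh and between 37.7 and 41.5 for pyruvate carboxylase. The brightest of the trpnX probe sets, which detect a bacterial transcript not present in mouse cells, read at most 24.3, under the dim level.

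Of the adipocyte genes given to check the label, Fabp4 and Adipoq were among the brightest of all, and Cidec lay outside the brightest 5%. Fabp4, which encodes the fatty acid binding protein of fat cells, was the brightest of the 18193 genes and read 18044, 17517 and 18269 in control replicates 1, 2 and 3, the order used for every trio of values that follows. Adipoq, which encodes adiponectin, ranked 16 with 13851, 13279 and 13724. Cidec, a lipid droplet protein that drives droplet fusion, ranked 1084 with 2496, 2476 and 2480.1. All 3 arrays gave these genes nearly the same level, so no control array lacked an adipocyte signal. The fourth marker, Plin1, was not analysed here. Of 12 listed adipocyte markers, 9 were measured, all 9 lay above the dim level and 7 were in the brightest 5%, and the median member was brighter than 99.3% of genes. Over all 18193 genes the shares were 67.9% above the dim level and 5.00% in the brightest 5%. The other 6 were Lpl, which frees fatty acids from circulating lipoproteins, at rank 11, the hormone Retn (resistin) at 96, the fatty acid transporter Cd36 at 127, the triglyceride lipase Pnpla2 at 307, the transcription factor Pparg at 843 and the hormone-sensitive lipase Lipe at 1354. Pparg, the PPARγ gene itself, read 3149, 2956 and 3032, and Lipe read 2212, 2011 and 2038. These were bulk cultures, so fewer cells of a type and less RNA per cell cannot be told apart here or in any level below.

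**Figure D1:**
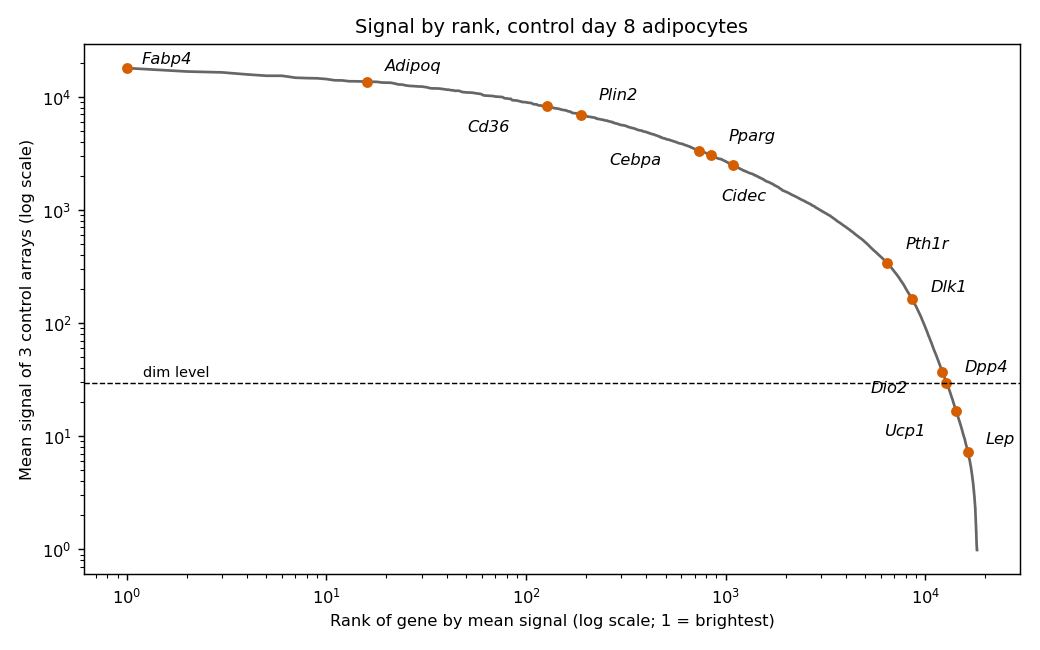
Mean signal of the 3 control arrays (log scale) for all 18193 genes in order of rank (log scale, 1 is the brightest), with 13 named genes as points and the dim level of 29.3 as a dashed line. Fabp4 and Adipoq sit on the flat top of the curve, Pth1r at rank 6455 lies on the falling part, and Ucp1 and Lep lie under the dim level.

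The bright end of the profile was shared among many genes. The 100 brightest held 10.1% of the summed gene signal, the brightest 1000 held 45.9%, and it took 1188 genes to reach 50%. Sorted by list and symbol, 27 of those 100 encoded ribosomal proteins, 12 subunits of oxidative phosphorylation, 10 proteins of the cytoskeleton and its partners, 9 proteins of lipid handling or adipocyte identity, 8 extracellular matrix proteins, 3 translation factors and 3 glycolytic enzymes, and 28 were left unsorted. The unsorted genes include Fau, ND5, Acta2, Gsn and Dbi, which by function belong with the ribosomal, respiratory chain, cytoskeletal and lipid groups. The cytoskeletal 10 include Lgals1, Cav1, S100a6 and Anxa2, and the 3 translation factors include Tpt1, which are not strictly of those groups. The group counts are therefore rough, with some genes missed and some added. Fatty acid handling placed Fabp4, Lpl, Fabp5 (rank 18, a related binding protein), Scd1 (rank 10, the desaturase that makes oleate) and Dbi (rank 12, an acyl-CoA binding protein) among the 30 brightest. Car3, a carbonic anhydrase abundant in fat and muscle, came next at rank 2 with 16843, 16280.2 and 17085. Lgals1, which encodes galectin-1, ranked 3 with 16442, 16293 and 16578.

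Matrix and cytoskeleton genes stood beside the fat genes at the top. Col3a1 (rank 4) and Col1a2 (rank 7) encode chains of fibrillar collagen, Sparc (rank 5) a collagen-binding glycoprotein and Bgn (rank 23) a small proteoglycan. Col3a1 read 15866, 15479.6 and 15959.7, and Sparc read 15445, 15267 and 15336. The smooth muscle actin Acta2 (rank 24), the intermediate filament gene Vim (rank 26) and the actin-severing protein Gsn (rank 15) were also among the 30. The ribosomal protein genes Rps29, Rpl13a, Rplp2, Rps28, Rpl38, Rps10 and Rps2, with the translation factor gene Eef1a1 (rank 9) and Tpt1 (rank 8), made up 9 of the 30. Tpt1, which encodes translationally controlled tumour protein, was in the translation factor list. Respiratory chain genes were Uqcrb, Cox6a1 and the mitochondrially encoded ND5, and Fth1 (ferritin heavy chain), Mgst1 (a membrane glutathione transferase) and Slc4a8 (a bicarbonate transporter) completed the set. The same 30 genes stayed the 30 brightest without any 1 of the arrays, and 18 of them did when a gene was given the mean of its probe sets.

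Slc4a8 rests on 1 of its 5 probe sets. That probe set read 13194, 12476 and 13640.5, while the other 4 had means between 6.11 and 52.0, on either side of the dim level. With the mean of all 5 the gene fell from rank 22 to 618. Ccdc74a showed the same pattern at rank 36, with its other 4 probe sets between 27.8 and 89.9, and is named here because of its values, as are Rtn4 and Ctsb, the only others of the 100 that went beyond rank 500 by the mean. Which of these probe sets follows the gene was not tested.

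The sequences just before the starts of Adipoq and Vim are shown as an adipocyte gene and a mesenchymal gene of the 30 brightest with core promoter letters close to the start, and both were picked for those letters. They are the 60 bases before the first start listed by RefSeq on build GRCm38.p6, with CCAAT on either strand (ATTGG on the other) or TATAAA in capitals.
Adipoq (chr16:23146476-23146535, plus strand): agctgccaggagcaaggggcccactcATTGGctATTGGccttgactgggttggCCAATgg
Vim (chr2:13574251-13574310, plus strand): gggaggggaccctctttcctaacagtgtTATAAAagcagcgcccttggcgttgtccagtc
Adipoq had CCAAT in 3 places in this stretch and Vim had TATAAA beginning 32 bases before the start. Of the 100 brightest genes 74 had a promoter in the table. TATAAA on either strand within 250 bases before the start was in 9.46% of these, beside 6.66% of genes above the dim level, 14.9% of genes above it on no array and 13.0% of all 27025 promoters. CCAAT was in 33.8% of the 74, beside 34.5% of all promoters. The pair of AGGTCA sites with 1 base between them, to which PPARγ binds with its partner RXR, was in 0 of the 74 and in 10 of the 27025. With an exact pair this rare, a set of 74 could hardly show any, and no reading is drawn from the 0.

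Genes of fatty acid supply and triglyceride assembly were measured above the dim level almost throughout. For uptake and binding, 13 of 14 members passed and the median member was brighter than 84.6% of genes. The dimmest were the muscle-type binding protein Fabp3, with 56.7, 53.1 and 55.5, and Gpihbp1, the anchor of lipoprotein lipase on capillary cells, with 26.6, 36.5 and 37.4. In fatty acid synthesis 18 of 19 passed, 9 were in the brightest 5%, and the median member was brighter than 94.8% of genes. Scd1 read 14701.5, 14258 and 14092, its relative Scd2 read 11535, 10984 and 11403, and Fasn, the fatty acid synthase itself, read 8888, 8171 and 8958. At the low end were Elovl3, a fatty acid elongase, at 74.6, 53.7 and 77.1, and Scd3 at 22.9, 30.8 and 36.3, so members of the same desaturase family lay at opposite ends of the list.

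Triglyceride synthesis had 14 of 15 measured members above the dim level. Its brightest were Gpd1 (rank 87), which makes the glycerol phosphate backbone, the acyltransferase Agpat2 (rank 135) and Gpam (rank 213), which attaches the first acyl chain. Gpd1 read 9724, 8954 and 9246, and Agpat2 read 8313, 7707 and 8065. At the low end lay the monoacylglycerol acyltransferases, with Mogat1 at 51.7, 50.1 and 47.4 and Mogat2 at 30.8, 14.0 and 23.5. The list's median member was brighter than 89.9% of genes with the brightest probe set of each gene, and lower by 7.14 percentage points when probe sets were averaged, the largest fall of any list.

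Lipid droplet coats differed widely in signal among family members. G0s2, an inhibitor of the lipase Pnpla2, ranked 110 with 8850.2, 8394 and 8539.7. The perilipins Plin2 and Plin4 ranked 188 and 388, with 7130.0, 6687 and 7062 and 5056, 5054 and 4734, while Plin3 and Plin5 ranked 3290 and 6092. Bscl2 (seipin), which shapes new droplets, ranked 352 with 5348, 5160.4 and 5169. Cidec, at rank 1084, stood far above the other CIDE genes in order, with Cidea at rank 8188 and Cideb, at 10.4, 35.7 and 29.6, not above the dim level in all arrays. The droplet-forming proteins Fitm2 and Fitm1 ranked 2060 and 11622, and Hilpda and the lipase coactivator Abhd5 ranked 5384 and 1573. All 9 measured lipolysis genes were above the dim level, led by G0s2, Pnpla2 at 5763, 5596 and 5436 and the monoglyceride lipase Mgll at 3808, 3549.6 and 3529, with Pnpla3 (rank 5473) and Abhd6 (rank 5965) last.

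Cholesterol synthesis was complete above the dim level in the 18 members measured, with a median member brighter than 91.8% of genes. Insig1, which holds the sterol sensor in the endoplasmic reticulum, read 6495, 6390.2 and 6471, and Hmgcs1, an early enzyme of the route, read 5094, 4808 and 5341. The dimmest, Mvk and Mvd, still read 342, 325 and 343 and 445, 348 and 505.

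Mitochondrial energy genes were above the dim level in all 3 lists, and all 3 lists had bright medians. In oxidative phosphorylation all 28 measured subunits lay above the dim level and 26 were in the brightest 5%, which holds 5.00% of all genes. Uqcrb, a complex III subunit, read 14134, 13809.5 and 13226, and the complex IV subunits Cox6a1 and Cox6b1 read 13654, 12978 and 13374 and 12244, 11451 and 11491. Even the dimmest, Atp5g1 and Ndufs1, ranked 1079 and 1243. All 21 tricarboxylic acid cycle enzymes were above the dim level, with Mdh2, Idh3g and Cs at ranks 181, 240 and 242, and a median member brighter than 96.8% of genes. All 18 fatty acid oxidation genes were too, with 10 in the brightest 5% and a median member brighter than 96.4% of genes. The brightest were Hadh, with 8333, 7684.5 and 7761, and Hadhb at rank 171. The dimmest were Cpt1a, the gate of the carnitine shuttle, with 417, 454 and 469.9, and Ehhadh with 420.1, 441 and 449.

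Glycolysis genes were all above the dim level, and glucose transporters were above it about as often as all genes. All 13 measured glycolysis enzymes passed, led by Ldha (rank 42), Aldoa (rank 77) and Pgk1 (rank 82), with Aldoc and Pfkm at the low end. Among glucose transporters 6 of 9 passed, beside 67.9% of all genes. Slc2a1, the transporter for basal uptake, read 3167, 2853 and 3091, and the insulin-responsive Slc2a4 read 1024, 891 and 974. Slc2a2 and Slc2a5, the liver and the fructose transporter, had means of 10.7 and 6.18, under the dim level.

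The list of cytosolic ribosomal proteins had the highest median of the 45 lists, 10104, beside 135 for all genes, and all 26 measured members were above the dim level. Over all 57 genes with an Rpl or Rps symbol 52 were, and 4 were above it on no array. Rpl13a read 13613, 13643 and 13874 and Rplp2 read 13698, 13623 and 13433. Rpl14, the dimmest, read 224, 246 and 251, and Rps6, the next, ranked 3170. The translation factor list (12 of 12 above the dim level) and the proteasome subunits (15 of 15) had medians of 7019 and 3742. The former list includes Tpt1. Eef1a1 read 14757, 14211 and 14733 and Psma3 read 6143.5, 6202 and 6107.

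Matrix genes ranged from the bright end to under the dim level. Of the 20 listed collagen genes, 18 were above the dim level and 11 in the brightest 5%, with Col3a1, Col1a2 at 14781, 14769.8 and 14688 and Col5a2 at 11416, 11189.6 and 11314 leading. The cartilage collagens Col2a1 and Col10a1 read 22.4, 28.1 and 30.2 and 1.46, 2.58 and 3.51, not above the dim level on all arrays. Over all 42 genes with a Col symbol 25 (59.5%) were above the dim level, below the 67.9% of all genes, and the median one was brighter than 51.8% of genes. All 24 matrix glycoproteins were above it, including Postn (periostin) at 11139, 11581 and 11535, with Fbln1 and Eln (elastin, 232, 253 and 212) as the dimmest. Among proteases and their inhibitors 17 of 19 passed. Ctsb, Timp1 and Ctsl were the brightest, and Timp4 and Mmp13 were not above the dim level on any array.

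All 19 measured members of the cytoskeleton list were above the dim level and 10 were among the 100 brightest. The median member was brighter than 99.5% of genes. Those 10 include Lgals1 (galectin-1), Cav1, S100a6 and Anxa2, which are not themselves structural proteins of the cytoskeleton. Vim read 12564, 12295.5 and 12623 and the actin gene Actb read 12244, 11698 and 12408. Tubb2a and Myl6 were the dimmest.

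**Figure D2:**
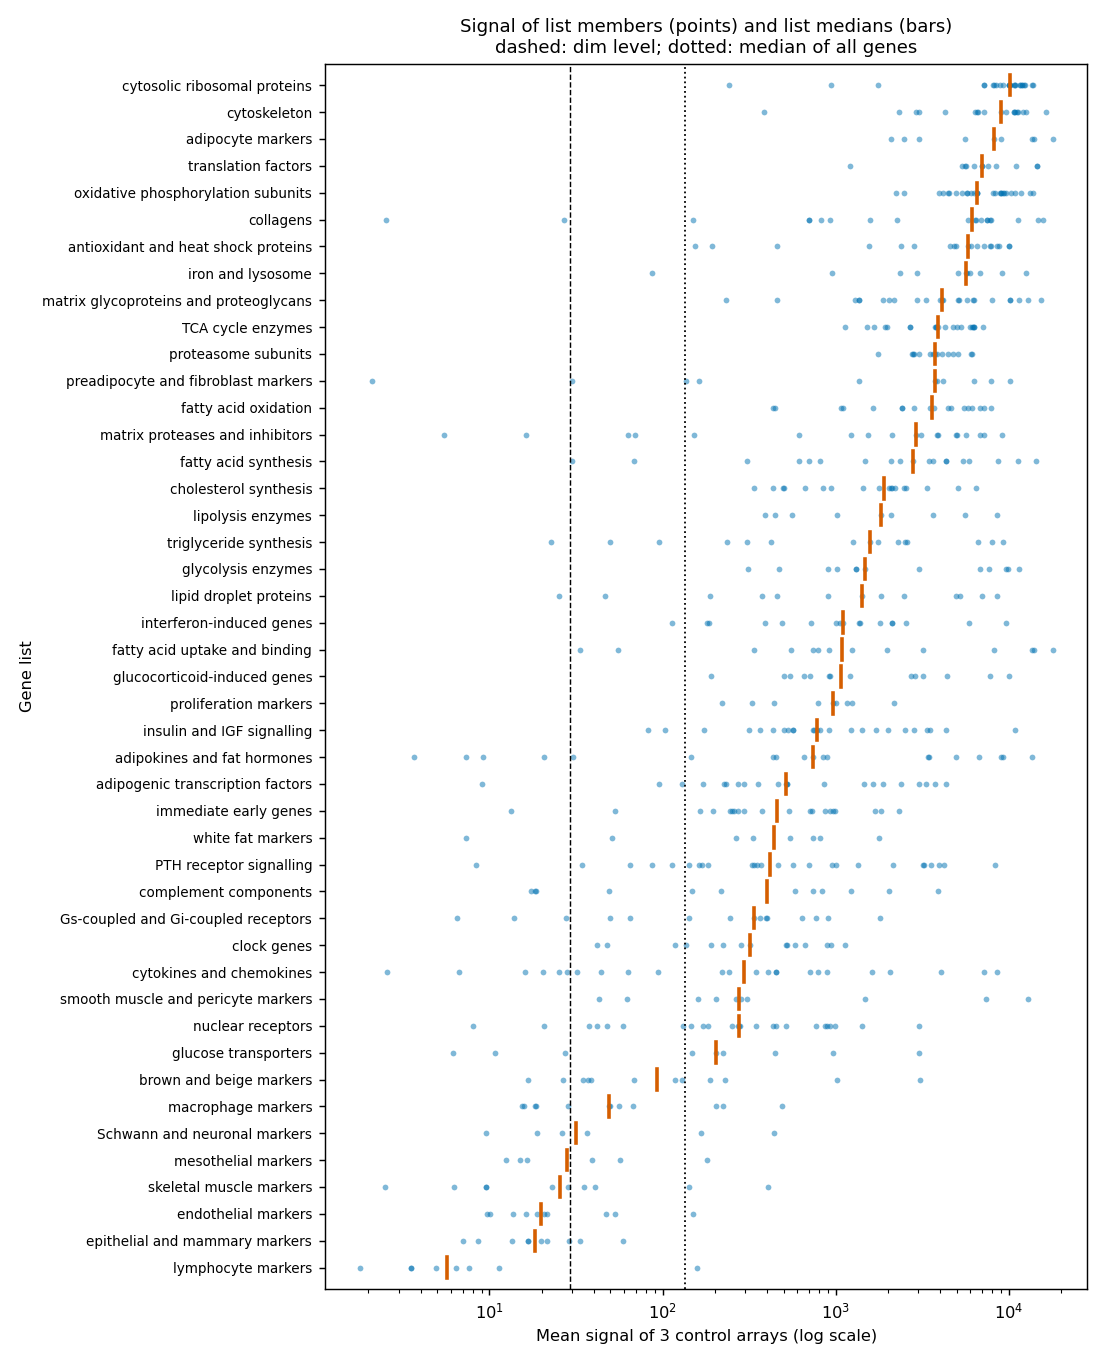
Mean signal of the 3 control arrays (log scale) for each measured member of the 45 gene lists (points), with the list median as a bar, ordered by that median. Ribosomal, cytoskeletal, adipocyte, translation factor and respiratory chain lists lie at the top, and lymphocyte, epithelial, endothelial, skeletal muscle and mesothelial lists have medians under the dim level of 29.3 (dashed), with the median of all genes at 135 (dotted).

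Markers of the stromal cells from which adipocytes form were bright. Of 11 preadipocyte and fibroblast markers, 9 were above the dim level and 6 in the brightest 5%. Fn1 (fibronectin) read 10237, 10379 and 9927, Col1a1 read 7858, 7992 and 7797 and the growth factor receptor gene Pdgfra, a defining marker of fibroblast-lineage cells, read 4283.5, 4292 and 3923. Pdgfrb, Thy1, Dcn and Lum ranked 635, 602, 235 and 2131. By contrast Dlk1 (preadipocyte factor 1), which falls as preadipocytes differentiate, read 149, 185 and 152, Cd34 read 125, 148 and 138, and the interstitial progenitor markers Dpp4 and Pi16 read 28.2, 26.6 and 34.8 and 3.11, 1.71 and 1.49. The list was therefore split, with general fibroblast genes near the top and early progenitor genes near or under the median gene.

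Smooth muscle and pericyte markers were split as well. Acta2, Tagln and Cnn1, contractile genes that cultured fibroblasts also express, ranked 24, 167 and 1941, and Acta2 read 12972, 12655 and 12837. Its probe set is 1 of 3, and the others had means of 83.4 and 31.1. Markers more particular to mature smooth muscle or pericytes were lower in the order, with Myh11 at 262, 294 and 299, Des at 165, 158 and 161, Rgs5 at 74.5, 55.1 and 57.1 and Kcnj8 at 55.3, 44.3 and 29.1. Cspg4, Notch3 and Abcc9 had means of 204, 265 and 306.

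Genes of dividing cells had signals above the dim level on day 8. All 9 measured proliferation markers were above the dim level, and the median member was brighter than 83.0% of genes. The mitotic kinase gene Cdk1 ranked 1290 with 2211, 2164 and 2097, Top2a ranked 2387 with 1174, 1244 and 1298, and Mki67 (Ki-67) ranked 3655 with 754, 805 and 805. Aurkb, the dimmest, read 217, 235 and 205, and Ccna2, Birc5, Rrm2, Bub1 and Plk1 lay between.

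Macrophage markers were low but not all under the dim level. Of 12 measured 7 lay above it (58.3%, beside 67.9% of all genes) and none were in the brightest 5%. The median was 49.4, and the summed signal of the list was between 1192 and 1265 over the 3 arrays. The growth factor receptor gene Csf1r read 527, 455 and 490.1, Cd14 read 231, 215 and 222 and Lyz2 (lysozyme) read 209, 189 and 216. Adgre1 (F4/80), Cd68, Mpeg1 and C1qb had means between 49.1 and 67.1. Ptprc (CD45), the marker of all leukocytes, read 10.0, 19.8 and 17.7, and Itgam (CD11b) read 17.2, 16.9 and 11.9, both under the dim level on every array, and Mrc1, C1qa and C1qc were not above it on all arrays. The macrophage list was thus carried by Csf1r, Cd14 and Lyz2.

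Other cell types gave little signal. Endothelial markers had 3 of 10 members above the dim level, namely Kdr at 138, 145 and 167, Cdh5 at 51.8, 48.6 and 58.0 and Tek at 46.4, 54.6 and 40.9, while Pecam1 (CD31), Cldn5, Emcn, Robo4, Erg, Vwf and Tie1 were above it on no array. For lymphocytes 1 of 8 passed, Cd8a at 156, 161 and 158, and Cd3e, Cd3g, Cd4, Cd79a and Ms4a1 were under the dim level. The Cd8a value is the brightest of 5 probe sets, of which the dimmest had a mean of 5.28, and the mean over all 5 was 36.3. Epithelial markers had 1 of 10, Cldn3 at 48.6, 56.2 and 73.3, with Epcam at 12.9, 19.8 and 17.4 and Cdh1 at 5.36, 9.61 and 6.08. Of skeletal muscle markers 3 of 10 passed, with Acta1 at 393, 371 and 455 and Myl1 at 149.8, 132 and 142 as the brightest and the myosins Myh1 and Myh3 under the dim level. Mesothelial markers had 3 of 6, of which Krt19 was brightest at 199, 151 and 192, with Wt1 and Upk3b under the dim level. Schwann cell and neuronal markers had 2 of 6, Tubb3 at 429, 410.3 and 481 and S100b at 170.0, 165 and 168, with Snap25 and Syt1 under it.

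Thermogenic genes of brown and beige fat ranged from bright to under the dim level. Ucp1, the uncoupling protein that defines heat-producing adipocytes, read 24.0, 11.8 and 14.2 and ranked 14287, under the dim level on all 3 arrays. Mitochondrial genes used as brown fat markers were bright, Cox7a1 at 3292, 2926 and 2948 and Cox8b at 1029, 985 and 1028. Ppargc1a, the coactivator of mitochondrial biogenesis, read 244, 210.3 and 236, Cidea read 209.8, 166 and 188 and Prdm16, a brown fat regulator, read 133, 126 and 129. Dio2, the enzyme that activates thyroid hormone in brown fat, read 42.7, 34.3 and 34.8, Elovl3 ranked 10698, and the beige markers Tbx1, Tnfrsf9 and Tmem26 ranked 9438, 12104 and 12380. Zic1, a marker of the classical brown lineage, read 27.7, 32.1 and 19.5 and was not above the dim level on all arrays. In total 9 of 12 passed, a share near the 67.9% of all genes. The median member was brighter than 44.7% of genes.

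White fat markers had 7 of 8 members above the dim level and a median member brighter than 68.8% of genes. Hoxc8, a homeobox gene of inguinal fat, read 1815, 1882 and 1643, while its neighbour Hoxc9 read 258, 257 and 280.1. Igfbp3, Agt (angiotensinogen) and Nnat ranked 3588, 3855 and 6504. The amino acid transporter Slc7a10, a marker of white adipocytes, read 597, 444 and 590.4, and Tcf21, of visceral fat, read 52.2, 51.6 and 50.1. Lep (leptin), the hormone that reports fat mass, read 12.5, 3.18 and 6.23 and ranked 16351, so the leptin gene was under the dim level on every array of cells in which adiponectin was the 16th brightest gene.

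Fat hormones spread over the whole range. Beside Adipoq, Serpinf1 (PEDF) read 9337, 9351 and 9189, Retn read 9368, 8705 and 8906 and Rbp4 (retinol binding protein) read 6984, 6737 and 6534. Angptl4, an inhibitor of lipoprotein lipase, Nampt (visfatin) and Rarres2 (chemerin) ranked 393, 707 and 711. A middle group, between ranks 3327 and 8909, held Ccl2, Apln, Agt, Lcn2, Il6, Metrnl and Nrg4. Fgf21, Serpina12, Sfrp5, Itln1 and Lep were not above the dim level on all arrays, with Fgf21 at 25.6, 38.3 and 27.1 and Sfrp5 at 10.8, 7.17 and 9.53. Of 19 measured, 14 passed (73.7%, near the 67.9% of all genes).

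Cytokine and chemokine genes were led by Mif at 8735, 8599 and 8376, Cxcl12 at 7131, 7352 and 6994 and Csf1, the macrophage growth factor, at 3963, 4205 and 3973. Of 24 measured 17 passed (70.8%, near the 67.9% of all genes). Tnf read 8.92, 4.15 and 6.91 and Csf2, the dimmest, had a mean of 2.56.

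Transcription factors of adipogenesis were nearly all above the dim level, 21 of 22, with 4 in the brightest 5%. These were Srebf1, the driver of lipid synthesis, at 4517, 4219.9 and 4300.1, then Cebpb at 3783, 3827 and 3561, Cebpa at 3570.1, 3193 and 3219 and Pparg. The early factors and the late factors of the cascade were thus found together at the top of the list, with Ebf1 next at rank 1139 and Cebpd at rank 1545 with 1842, 1807 and 1951. Nfia, Klf4 and Tcf7l2 ranked 1772, 1994 and 3423. Zfp423, a preadipocyte factor, read 241, 244 and 208. Gata2 and Gata3, which restrain adipogenesis, read 235, 197 and 244 and 6.21, 14.0 and 7.07, and Gata3 was the only member under the dim level on all arrays. Ebf2, Stat5a, Rxra, Stat5b, Klf15, Ebf3, Nr1h3, Rxrg, Prdm16 and Klf5 lay between ranks 4963 and 9927.

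Among 25 nuclear receptors 22 passed, and Pparg, Nr3c1 (the glucocorticoid receptor, 1434, 1455 and 1359) and Nr4a1 (958, 960.0 and 1059) were brightest. The related PPAR genes Ppard and Ppara were far lower in the order, at ranks 7412 and 9160. Vdr, the vitamin D receptor, read 316, 261 and 269, and Esr1 and Thra ranked 5450 and 3197. Nr5a2 and Nr3c2 (the mineralocorticoid receptor) were the dimmest.

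Of 15 receptors coupled to Gs or Gi, 12 were above the dim level (80.0%, beside 67.9% of all genes). Ffar2, a receptor for short-chain fatty acids, read 2065, 1629.8 and 1677, Lpar1 read 881, 974 and 843, Ffar4, for long-chain fatty acids, read 892, 688 and 726 and Tshr, the thyrotropin receptor, read 626, 616 and 675. Ffar2 and Ffar4 were both highest in replicate 1. Mc2r (the ACTH receptor), Hcar2 and Ptger4 had means between 363 and 399. The receptor for PTH and PTHrP itself, Pth1r, read 332, 344 and 333, 336 ± 6.67 (mean ± SD, n = 3), at rank 6455, well above the dim level and brighter than 64.5% of genes. Ptgir, S1pr1, Mc5r and Gipr lay below it in the order, and Ptger3, Gcgr and Glp1r were not above the dim level on all arrays.

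Genes of the machinery downstream of Pth1r were mostly above the dim level. Gnas, which encodes Gsα, the G protein that couples the receptor to adenylyl cyclase, ranked 122 with 8476, 8403 and 8046. Prkaca and Prkar1a, a catalytic and a regulatory subunit of protein kinase A, ranked 504 and 570 with 4316, 4356 and 3987 and 4086, 3987 and 3808. In all 24 of 26 members of the PTH receptor signalling list were above the dim level (92.3%, beside 67.9% of all genes). Pth2r, the other receptor of the family, read 4.48, 7.44 and 13.2, under the dim level. The receptor activity-modifying proteins, single-pass partners of such receptors, ran from Ramp1 at 331, 354 and 373 over Ramp2 at 76.0, 93.8 and 90.6 to Ramp3 at 43.8, 35.0 and 23.4, and Ramp1 and Ramp2 are named here after their values were seen.

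**Figure D3:**
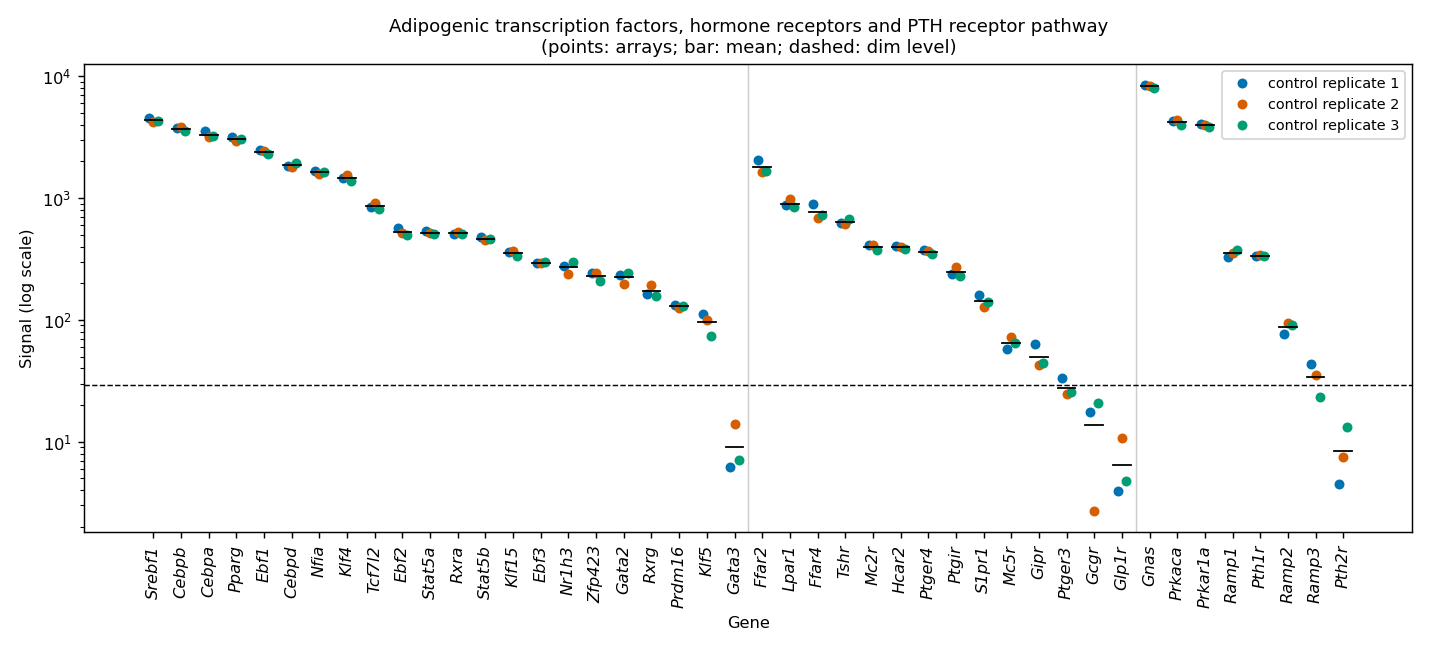
Signal (log scale) of adipogenic transcription factors (left panel), receptors coupled to Gs or Gi (middle) and PTH receptor pathway genes (right) on each of the 3 control arrays (points), with the mean as a bar and the dim level as a dashed line. The 3 arrays lie close together for genes above a signal of 100, Pth1r sits at 336 in a narrow cluster, and genes under the dim level, such as Gcgr and Pth2r, scatter.

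All 25 measured insulin and IGF signalling genes passed. The binding proteins Igfbp7, at 11082, 10942 and 10754, and Igfbp4 were the brightest, followed by Igf1, a growth factor that fat cells secrete, at 3479, 3518 and 3453. Irs2, an insulin receptor substrate, was the dimmest at 80.2, 87.5 and 80.6, with Igf2 next at 106, 81.1 and 122.

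Genes that glucocorticoids induce were all above the dim level (14 of 14), led by the metallothioneins Mt1 and Mt2 at 10479, 9586 and 9892 and 8203, 7459 and 7652, with Fkbp5 at 489, 492 and 529 and Per1 last. Among immediate early genes 19 of 20 passed, from Jund, Fosl2 and Egr1, at 1571, 1745 and 1751, down to Nr4a3 and Fosb at 14.0, 14.0 and 12.1. All 15 clock genes passed but none were in the brightest 5%, with Nfil3 at 1090.3, 1146 and 1149 first and Nr1d1 and Hlf last. Antioxidant and heat shock genes (19 of 19 above the dim level) were led by Mt1, the chaperone Hspa8 at 9873, 9978 and 10032 and thioredoxin, Txn1. Iron and lysosome genes had 11 of 11, with Fth1 at 12781, 12469.8 and 12567 and the iron exporter Slc40a1 at 85.3, 86.7 and 89.3 as the dimmest. Complement genes had 9 of 12, a share near the 67.9% of all genes. They ran from the C1 inhibitor Serping1 at 3806, 4157 and 3731 and C1s1 at 2012, 2090.1 and 1958 to C5ar1 under the dim level.

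The 3 control arrays differed little, and less the brighter the gene. Over the 12351 genes above the dim level the median coefficient of variation (SD over mean, n = 3) was 5.69%. It fell from 11.4% for genes with a signal under 100 to 4.97% between 300 and 1000 and 1.83% above 10000. Pairs of arrays had a median absolute log2 difference between 0.080 and 0.095, across genes of signal plus 16. A spread of at least 1.5-fold between the highest and the lowest array was found in 524 genes, 4.24% of those above the dim level, and 392 of these had a signal under 100. Without replicate 1, 2 or 3 the number was 257, 211 or 245, where fewer arrays alone make the range smaller.

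Genes far from the dim level were then taken alone. With a signal of at least 117, 4 times the dim level, on all arrays there were 9214 genes, and 78 of them (0.847%) had a spread of at least 1.5-fold. The largest was Rwdd2b, with 141, 139 and 485, high in replicate 3 only. Hmox1 (heme oxygenase 1), an oxidative stress gene, read 633, 248 and 502 and was low in replicate 2, as was Rflna at 1408, 770.2 and 1618.

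**Figure D4:**
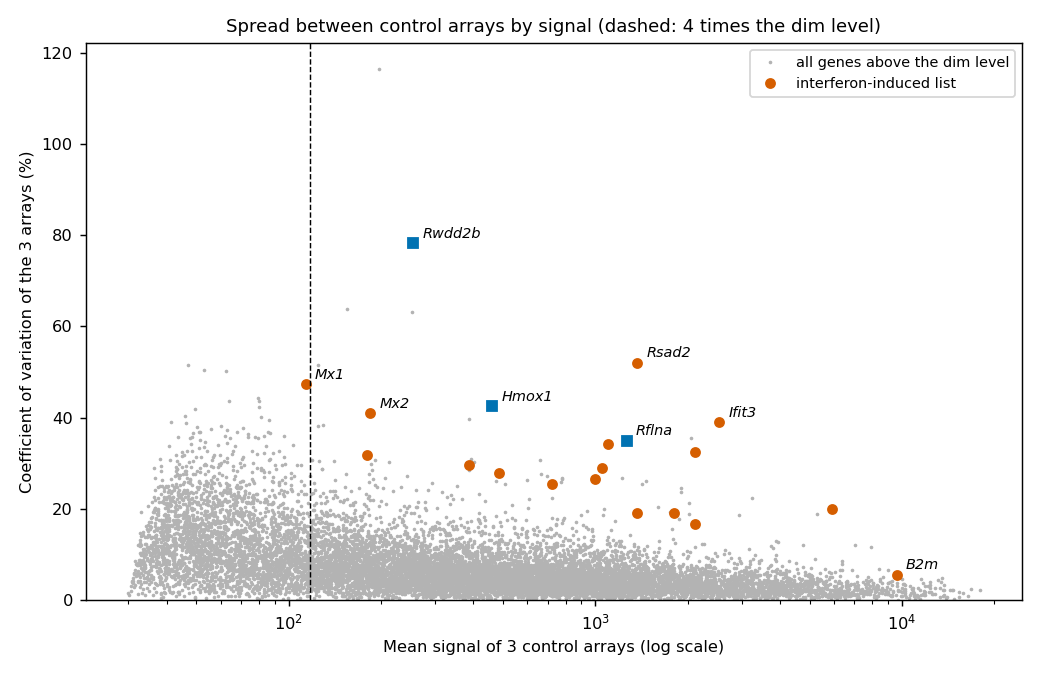
Coefficient of variation of the 3 control arrays in percent against mean signal (log scale) for the 12351 genes above the dim level (grey), with the 17 interferon-induced genes in orange, Rwdd2b, Hmox1 and Rflna in blue, and 4 times the dim level as a dashed line. The grey cloud narrows with signal, and most interferon-induced genes lie above it, with Rsad2 at 52.0% and B2m at 5.54%.

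Of the 15 most variable genes with a gene name rather than a clone name, which passes over BC023105 at 264, 427 and 474, the other 12 were all lowest in control replicate 1, and all but Polr1b and Haus4 are genes that interferons switch on. Haus4, a component of the spindle, read 498, 891 and 599, and Polr1b, an RNA polymerase I subunit, read 131, 183 and 242. Interferons are cytokines of the antiviral response, and the proteins their targets encode degrade, sequester or signal the presence of foreign RNA. Rsad2 (viperin), which blocks the release and copying of viruses, read 588, 1985 and 1546, a spread of 3.38-fold. Ifit3, an RNA-binding antiviral protein, read 1401, 3208 and 3006, and its relative Ifit1 read 1332, 2622 and 2367. Cxcl10 and Cxcl9, chemokines named for their induction by interferon-γ, read 1245, 2665 and 2266 and 259.6, 497 and 428. In each of these 5 genes replicates 2 and 3 lay closer to each other than to replicate 1, which was lowest. The remaining 5 were Cmpk2 at 210.4, 472 and 483, Usp18, a negative regulator of interferon signalling, at 664, 1308 and 1325, Ifi207 at 269, 508 and 430.2, Oas1a, which makes the messenger that activates RNase L, at 267, 496 and 402, and Ifi47 at 704, 1269.8 and 1185.

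The whole list of interferon-induced genes went the same way. Of 20 listed genes 17 were measured, all above the dim level, and all 17 were lowest in replicate 1, beside 24.7% of the 12351 genes above the dim level. The median ratio over the 17 was 1.80 for replicate 2 over replicate 1 and 1.67 for replicate 3 over replicate 1, where the median gene above the dim level had ratios of 0.997 and 0.975. Replicates 2 and 3 differed by a median ratio of 1.07. Mx2, Irf7, Xaf1, Gbp2 and Bst2 are named after their values were seen. Mx1 and Mx2, dynamin-like antiviral GTPases, read 55.7, 162 and 123 and 98.0, 237 and 219.6, the helicase Ddx60 read 115, 221 and 206, and Irf7, the transcription factor that amplifies the response, read 697, 1189 and 1116. The smallest spreads were in B2m, the light chain of class I antigen presentation, with 9138, 10198 and 9563, and Xaf1 with 1713, 2343 and 2303. All 17 were lowest in replicate 1 with quantile normalization, with arrays scaled to one median and when each gene took the mean over its probe sets. Of 7 macrophage markers above the dim level, 3 were lowest in replicate 1 and 4 in replicate 2. Mpeg1 read 36.6, 69.2 and 62.9, Adgre1 59.6, 74.5 and 67.3 and C1qb 42.6, 55.8 and 48.9, lowest in replicate 1, as was Ptprc under the dim level, while Csf1r, Cd14, Lyz2 and Cd68 were lowest in replicate 2. The summed signal of the 12 was 1251, 1192 and 1265, most of it from Csf1r, Cd14 and Lyz2, and the part of these cells in the interferon values was not tested. The list was chosen with earlier results of these data known, so its count describes these 3 arrays. What set replicate 1 apart was not tested.

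Among the 78 genes, 44 (56.4%) were lowest in replicate 1, 21 in replicate 2 and 13 in replicate 3, while over all 9214 genes the shares were 22.9%, 27.7% and 49.4%. The 44 included 9 of the 14 list members in this signal range. Without replicate 1 the 78 genes became 28, without replicate 2 they became 36 and without replicate 3 they became 51, and without the interferon list they were 69. The 69 still hold genes that interferons switch on but that the list does not name, such as Cxcl10 and Cmpk2. Chosen after their values were seen, further genes low in replicate 1 were Igtp (1024, 1634 and 1727) and Gbp7 (869, 1515 and 1279.8). Both encode interferon-inducible GTPases. Zbp1 (541, 925 and 864), a nucleic acid sensor, and Parp14 (537, 908 and 887) were also low in replicate 1 and chosen in the same way. Not every interferon-inducible gene was low there. Ifi30 is among the 78 and was lowest in replicate 2 (378, 248 and 389), and Ifitm2 was among the 10 steadiest bright genes (3253, 3257 and 3267).

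**Figure D5:**
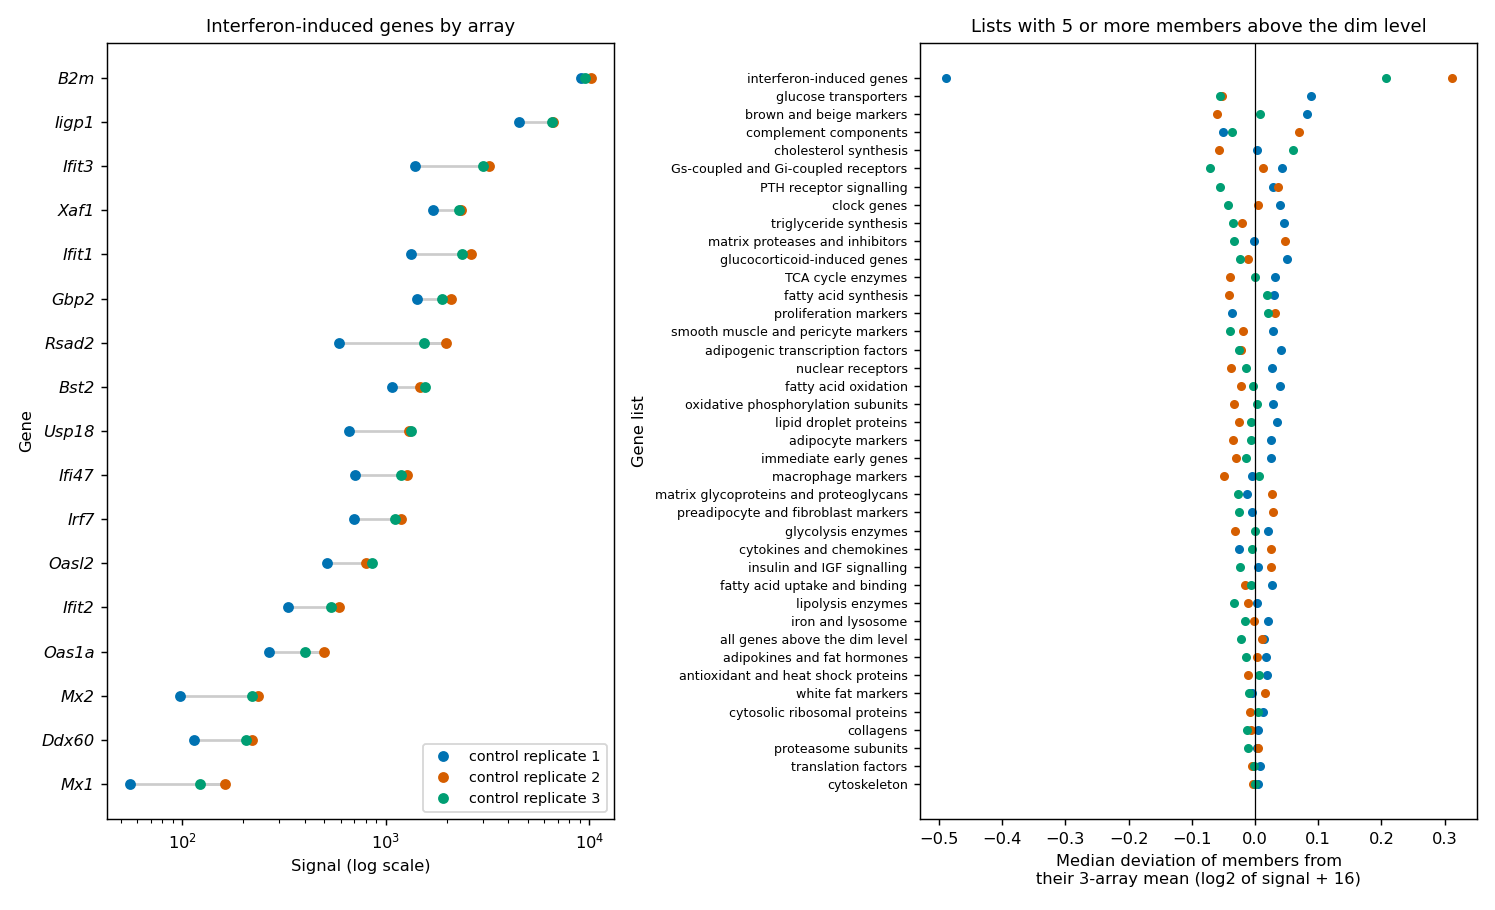
Left, signal (log scale) of the 17 interferon-induced genes on each control array; right, median deviation of each list's members from their own 3-array mean, on the log2 scale of signal plus 16, for lists with 5 or more members above the dim level. Every interferon-induced gene is lowest in replicate 1, where the list's median deviation is -0.49, and no other list has a deviation beyond 0.09 in size.

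The promoters of these genes are shown because they carry the letters that interferon response elements share. Interferon-activated factors of the STAT and IRF families bind elements built from GAAA repeats, and the motif searched was GAAA, any 2 bases, GAAA, on either strand (TTTC, 2 bases, TTTC on the other). The lines below give the stretch just before the first start listed by RefSeq (GRCm38.p6) for each list member with a whole match in that stretch, and for Irf7, a member without one. Matches are in capitals, and overlapping matches run together.
Ifit1 (chr19:34640759-34640888, plus strand): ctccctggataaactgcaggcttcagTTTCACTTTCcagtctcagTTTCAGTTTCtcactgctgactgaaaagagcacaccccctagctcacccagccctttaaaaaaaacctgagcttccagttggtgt
Ifit3 (chr19:34583399-34583528, plus strand): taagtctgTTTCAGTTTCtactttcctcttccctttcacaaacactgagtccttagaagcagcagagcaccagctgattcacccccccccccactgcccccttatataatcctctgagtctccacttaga
Oas1a (chr5:120907526-120907655, minus strand): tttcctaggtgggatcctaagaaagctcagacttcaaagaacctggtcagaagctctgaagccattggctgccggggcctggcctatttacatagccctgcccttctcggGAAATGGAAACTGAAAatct
Rsad2 (chr12:26456453-26456582, minus strand): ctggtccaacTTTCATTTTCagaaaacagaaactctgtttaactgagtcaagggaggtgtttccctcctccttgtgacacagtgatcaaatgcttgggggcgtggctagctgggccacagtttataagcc
Ddx60 (chr8:61927957-61928086, plus strand): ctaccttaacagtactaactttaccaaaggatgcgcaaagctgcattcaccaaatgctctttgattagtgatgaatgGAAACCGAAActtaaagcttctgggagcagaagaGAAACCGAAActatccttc
Bst2 (chr8:71537473-71537602, minus strand): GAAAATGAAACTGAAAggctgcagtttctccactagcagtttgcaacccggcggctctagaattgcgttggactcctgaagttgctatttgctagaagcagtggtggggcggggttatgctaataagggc
Gbp2 (chr3:142620533-142620662, plus strand): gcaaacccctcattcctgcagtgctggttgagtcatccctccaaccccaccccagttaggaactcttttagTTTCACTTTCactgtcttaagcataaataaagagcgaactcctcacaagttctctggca
Irf7 (chr7:141266425-141266554, minus strand): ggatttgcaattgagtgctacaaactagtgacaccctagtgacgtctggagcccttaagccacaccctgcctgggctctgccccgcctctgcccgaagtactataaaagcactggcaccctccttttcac
In Ifit1 the matches began 104 and 85 bases before the start, in Ifit3 122, in Oas1a 20 and 14, in Rsad2 120, in Ddx60 53 and 19, in Bst2 130 and 124 and in Gbp2 59. B2m had a match farther out, 139 bases before the start. Within 250 bases before the start the motif was in 8 of the 13 list members that had a promoter in the table (61.5%), beside 2.54% of the 9919 genes above the dim level and 3.04% of all 27025 promoters.

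The variable genes were also set apart by the array in which they were lowest. Of the 44 genes lowest in replicate 1, 32 had a promoter in the table and 12 of them (37.5%) held the motif. Of the other 34, lowest in replicate 2 or 3, 28 had a promoter and 0 held it. TATAAA was in 18.8% of the 32 and 0 of the 28, and CCAAT in 46.9% and 35.7%. Among genes above the dim level the motif was in 2.54%, TATAAA in 6.66% and CCAAT in 36.4%. At the first 2 of these shares a set of 28 could hold few or none, and no reading is drawn from either 0. The 32 include list members, so these shares and those of the list overlap in genes. A match is a description of the sequence and does not show that a factor bound there, and a promoter without these letters may hold the element elsewhere.

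Other lists with 5 or more members above the dim level moved between arrays by far less. Among shorter ones, the 3 mesothelial markers had a median deviation of -0.22 in replicate 2 and the 1 epithelial marker, Cldn3, one of 0.26 in replicate 3, both at low signal. Energy genes leaned towards replicate 1 and away from replicate 2. Of 28 oxidative phosphorylation subunits 19 were highest in replicate 1 and 21 lowest in replicate 2, with median deviations of 0.03 and -0.03 on the log2 scale. Of 21 tricarboxylic acid cycle enzymes 15 were highest in replicate 1 and 18 lowest in replicate 2, and of 18 fatty acid oxidation genes 15 were highest in replicate 1. Adipocyte markers were highest in replicate 1 in 8 of 9, whereas preadipocyte and fibroblast markers were highest in replicate 2 in 8 of 9 and matrix glycoproteins in 15 of 24. Cholesterol synthesis genes were highest in replicate 3 in 13 of 18, with a median deviation of 0.06, and lowest in replicate 2 in 13. Over all genes above the dim level 37.7% were highest in replicate 1, 38.1% in replicate 2 and 24.2% in replicate 3. The shares of these genes lowest in replicates 1, 2 and 3 were 24.7%, 29.0% and 46.3%. In the longer lists these differences were a few percent of signal, against the 1.67-fold and larger medians of the interferon list, and the part of adipocyte and fibroblast markers in them was not tested.

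The level of a gene depended on which probe set stood for it. Of 7531 genes above the dim level with several probe sets, 3520 (46.7%) had a brightest probe set at least 10 times as bright as the dimmest, and the median ratio was 8.55. Clone names aside, the widest ratios were in Slc25a39, Ywhag, Rps3, Rps4x, Grsf1, Sash1, Cxcl12 and Hspa9, where the dimmest probe set read at most 3.81, and of these Cxcl12 moved from rank 176 to 512 with the mean of its probe sets. Among the named adipocyte genes Fabp4 has 4 probe sets, with means of 17944, 13164, 2541 and 2161, all above the dim level, and by their mean it ranked 54. Adipoq, Pparg, Cidec, Pth1r and Ucp1 have 1 probe set each with this symbol, so their signals did not depend on this choice, though their ranks did as other genes moved. Of the 100 brightest genes 66 were among the 100 brightest by that mean too.

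Bright genes were short. The genomic span of a gene from RefSeq had a median of 5.87 kb in the 100 brightest genes, 15.1 kb in the brightest 5%, 23.1 kb in all genes above the dim level and 20.3 kb over all genes with a span. Genes above the dim level on no array had a median of 14.7 kb, so span did not simply fall as signal rose. The ribosomal protein and respiratory chain genes that fill the top belong to families of small proteins, and their part in this difference was not tested.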

How the data were processed

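Array intensities of the 3 control samples were read from the deposited table of the authors' processed values. The sources used here do not give how the authors summarised and scaled these intensities, and a linear scale was inferred from the values. Genes were named from the platform annotation, and probe sets with several symbols (932), none (9160) or of array controls (64) were left out. Each gene took its brightest probe set. No groups were compared and no test was run. Spread was given as SD, coefficient of variation and highest over lowest signal, and 16 was added to signals before log2. Promoters came from the RefSeq table of build GRCm38.p6. The members and lists were chosen with earlier results of these data known, and 1 white fat marker symbol was corrected after the data were seen. Named genes were the 30 brightest, 4 adipocyte markers, the 3 brightest and 2 dimmest of each list, any regulator, receptor, adipokine, droplet protein or cell type marker, the 15 most variable, the 8 with the widest probe set ratios, and Pth1r, Ucp1, Lep and Pparg, passing over clone names. Alternatives were quantile normalization, scaling to one median, the mean of probe sets, dim levels at the 25th and 50th percentile, and leaving out each array. Simulated data were used to check only gene rank order, the median coefficient of variation, the count of widely spread genes and the lowest array. The other steps were not tested in this way. Tools were Python 3.11.15, pandas 2.3.3, numpy 2.4.6 and matplotlib 3.10.9.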

Additional observations from a re-analysis of the deposited data

Results flagged for a closer look

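Signal was present in probe sets outside the gene values above. Among 9160 probe sets with no gene symbol in the annotation, 120 were in the brightest 5% of all probe sets, which began at 2131, and the brightest had a mean of 12697. Of these 9160, 30.9% were above the dim level on all 3 arrays, beside 62.9% of probe sets with 1 symbol. Among 932 probe sets with several symbols, 217 (23.3%) were in the brightest 5%, beside 5.43% of those with 1 symbol, and the brightest had a mean of 14288. The trpnX control probe sets, which detect a bacterial transcript not present in mouse cells, read at most 24.3.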

How the results depend on the processing

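The number of genes above the dim level was between 11050 and 14132 under every alternative tried. The share of signal in the 100 brightest genes, 10.1%, was 11.8% with averaged probe sets and between 10.0% and 10.2% without one array. The median coefficient of variation, 5.69%, was 6.25% with arrays scaled to one median and 4.99% with averaged probe sets. It was 6.41% and 5.26% for dim levels at the 25th and 50th percentile. Without one array it was between 4.19% and 5.02%. The 524 genes with a spread of at least 1.5-fold became 344 with averaged probe sets, 1332 and 241 with the lower and higher dim level, which change how many dim genes are counted, and between 211 and 257 without one array, where fewer arrays narrow the range. With the mean of probe sets 18 list medians were higher in rank and 27 lower. Signals near the dim level vary most, so order among them is not resolved. No paired analysis was possible because no groups were compared.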

Other observations

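Gene families defined by symbol differed in how many members were above the dim level on all arrays, beside 67.9% of all genes. All 76 measured mitochondrial ribosomal protein genes were, as were 43 of 44 NADH dehydrogenase genes and 289 of 336 zinc finger genes of the Zfp series. Of 36 Hox genes 25 passed (69.4%), close to that share, and of 16 Klf genes 14. Among Wnt ligands 6 of 19 passed, beside 8 of 11 Fzd receptors that bind them. Olfactory receptor genes had 4 of 39, vomeronasal receptor genes 2 of 32 and beta-defensins 1 of 20.

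By chromosome, leaving out Y, between 62.4% (chromosome 6) and 72.6% (chromosome 19) of genes were above the dim level, with 62.9% on X. The steadiest bright gene was Serpinh1, the collagen chaperone, with 9682, 9674 and 9683 on the 3 arrays.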
